A study of Mus musculus with 10 samples.

Results

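The genes described here are enzymes, regulators and carriers of cholesterol and fatty acid synthesis, measured in activated mouse CD4+ T cells. From 34 named genes, each was represented by the probe set, among those annotated to that symbol alone, with the highest mean over the arrays. Acat2 was dropped because no probe set carried its symbol alone, and 33 genes remained among 18193 with a probe set. They comprised 17 sterol enzymes, 5 genes of regulation and transport, and 11 fatty acid genes. All 33 passed the filter on low values, as did 11318 genes in total.

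Affymetrix Mouse Genome 430 2.0 arrays were hybridised with RNA from splenic CD4+ T cells that had been sorted by GFP, stimulated through CD3 and CD28 and given a retrovirus. DEREG mice carry a GFP reporter driven by Foxp3 regulatory sequence, so that GFP marks regulatory T cells (Tregs), and scurfy mice lack functional Foxp3 protein. The vector was pGCSamIN, with NGFR as the marker by which transduced cells were sorted. The design asks which expression differences follow the starting cell and which follow the Foxp3 vector.

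There were 5 groups of 2 arrays. The Treg mock group started from GFP+ cells of DEREG mice and received empty vector. Tconv mock and Tconv Foxp3 started from GFP- cells of DEREG mice and received empty or Foxp3 vector. The scurfy mock and scurfy Foxp3 groups started from GFP+ cells of mice abbreviated D_S in the descriptions, read here as DEREG/Scurfy. The strain field gives DEREG on Balb/c for all 10 arrays, so that reading rests on the protocol and the abbreviation. The titles mark the GFP+ starts as epigenetics(+) and the GFP- starts as epigenetics(-). No label ties the replicates to different mice or cultures, and the p-values below therefore reflect array-to-array spread that may be technical alone. Mouse age and any pooling are not stated in the labels.

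Cholesterol synthesis runs from acetyl-CoA through mevalonate and squalene to lanosterol, and then through a series of reductions and demethylations to cholesterol. Fatty acid synthesis carboxylates acetyl-CoA, builds palmitate from it, and then lengthens and desaturates the chain. Both pathways are driven by the SREBP transcription factors, which SCAP escorts out of the endoplasmic reticulum when sterols are low and which INSIG proteins hold back when sterols are plentiful. Stimulated T cells turn on both pathways to make membranes.

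Arrays differed in brightness, and a few stood apart. The median intensity per array ranged from 18.8 to 36.5, and the ratio of 3′ to 5′ Gapdh probe sets from 1.75 to 2.24. That ratio, a sign of RNA quality, was 2.06 and 2.11 on Treg mock and 2.03 and 2.24 on scurfy Foxp3, and 1.75 to 1.89 on the 6 arrays of the other groups. It was thus higher in the groups where most members read lowest, and its part in the results was not tested. T cell markers were high throughout, with a summed intensity of 14808 to 22764 for 6 markers. The 13 proliferation markers with a probe set summed to 17699 on scurfy Foxp3 array 2 and to 20603 to 31178 elsewhere. Mki67 and Top2a read 640 and 653 on that array, and 2811 to 3928 and 1569 to 2661 on the others. The markers' median log2 deviation from their own means was -0.24 there, and that of all genes -0.17. That array held the lowest value for 14 of 33 members, against 22.7% of all genes. Whether these features are connected was not tested. Foxp3 read 2130.3 and 3128 on Treg mock, 1114 to 1188 on scurfy mock, 691 to 948 on scurfy Foxp3, 35.9 to 53.9 on Tconv mock, and 18.04 and 18.9 on the arrays labelled Tconv Foxp3. It was not above mock on the arrays labelled Foxp3, but whether its probes lie within the vector insert is not given here, so the probe set does not check those labels. Directions for the vector are therefore given for "Foxp3-labelled" arrays. B cell markers (7 of 8 with a probe set) summed to 745 and 1760 on scurfy Foxp3, 293 and 503 on Tconv Foxp3, 57.1 and 579 on Treg mock, 86.1 and 332 on scurfy mock, and 53.8 and 46.4 on Tconv mock. All 8 myeloid markers had a probe set, and their sums were 601 and 872 on scurfy Foxp3 and between 85.4 and 258 elsewhere. Of those, Tyrobp and Fcer1g were called in scurfy Foxp3 against Tconv Foxp3, while the defining markers Cd14, Itgam, Adgre1 and Lyz2 did not pass the filter. Tyrobp and Fcer1g lay below the array median on every Tconv array, so they passed the filter through GFP+ starts. Csf1r passed too and read 22.9 and 21.0 on scurfy Foxp3, below both array medians, and 11.2 and 24.9 on Tconv Foxp3. Cd68, which also passed, read 119 and 313 on scurfy Foxp3 and 27.9 and 39.4 on Tconv Foxp3. The part of the B cell and myeloid markers in the results on these genes was not tested.

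The lipid synthesis genes themselves singled out scurfy mock array 1. It held the highest value of the 10 arrays for 21 of 33 members, against 16.5% of all genes tested, and array 2 of that group held it for 0 of 33, against 4.89%. The replicates of scurfy mock differed by over 1 log2 unit in 20 of 33 members (60.6%), against 14.0% of all genes. In the other groups that count was 0 to 5 members. Array 1 also had the highest NK marker sum, 223 against 5.37 to 72.5 elsewhere (3 of 4 markers with a probe set). That sum was mostly Eomes at 203, while Ncr1 read 0.493 there. Whether these features are connected was not tested. Results that use scurfy mock are given with each of its arrays apart.

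Promoter sequence is shown for 3 members that stand at separate points of the sterol pathway and whose arrays are described below. Hmgcs1 makes the precursor of mevalonate, Cyp51 demethylates lanosterol, and Insig1 is the feedback regulator. RefSeq promoters (GRCm38.p6, 250 bases before to 50 after the start) matched 26 of 33 members. The windows are chr13:119690101-119690400 on the plus strand, chr5:4104648-4104947 on the minus strand and chr5:28071162-28071461 on the plus strand. Capitals mark matches, on either strand, to the sterol regulatory element TCACNCCAC, the CCAAT box CCAAT, the GC box GGGCGG and the E-box CACGTG, and no match overlaps another here.
Hmgcs1: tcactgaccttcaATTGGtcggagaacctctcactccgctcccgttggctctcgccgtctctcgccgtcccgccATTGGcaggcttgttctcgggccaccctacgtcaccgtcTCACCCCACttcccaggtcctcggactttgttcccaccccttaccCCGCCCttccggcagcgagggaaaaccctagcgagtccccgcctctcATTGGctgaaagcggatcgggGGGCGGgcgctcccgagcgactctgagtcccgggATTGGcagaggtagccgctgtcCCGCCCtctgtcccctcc
Cyp51: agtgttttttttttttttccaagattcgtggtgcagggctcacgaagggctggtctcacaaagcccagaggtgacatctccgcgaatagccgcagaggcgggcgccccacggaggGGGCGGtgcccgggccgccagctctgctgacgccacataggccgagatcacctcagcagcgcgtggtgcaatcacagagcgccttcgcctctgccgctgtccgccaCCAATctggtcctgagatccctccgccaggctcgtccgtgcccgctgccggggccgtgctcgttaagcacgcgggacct
Insig1: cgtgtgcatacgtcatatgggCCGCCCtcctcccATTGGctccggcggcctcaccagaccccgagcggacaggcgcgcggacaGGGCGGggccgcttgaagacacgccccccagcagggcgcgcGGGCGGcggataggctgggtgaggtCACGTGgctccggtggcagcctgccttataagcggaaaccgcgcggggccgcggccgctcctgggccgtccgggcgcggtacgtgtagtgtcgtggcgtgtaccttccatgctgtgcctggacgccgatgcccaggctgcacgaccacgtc
The Hmgcs1 window holds the sterol regulatory element 137 bases before the start, 4 CCAAT boxes and 3 GC boxes. Hmgcs1 was the only matched member with that element, 1 of 26 (3.8%), against 1.44% of 27025 genes. A CCAAT box stood in 22 of 26 members (84.6%), against 41.06% of all genes and 42.75% of 9219 tested genes that matched, and it stood in all 14 matched sterol enzymes and 5 of 8 fatty acid genes. A GC box stood in 21 of 26 (80.8%), against 68.56% of tested genes, and the E-box in 6 of 26 (23.1%), against 11.68%. These are counts of letters in a window and not of bound sites.

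**Figure D1:**
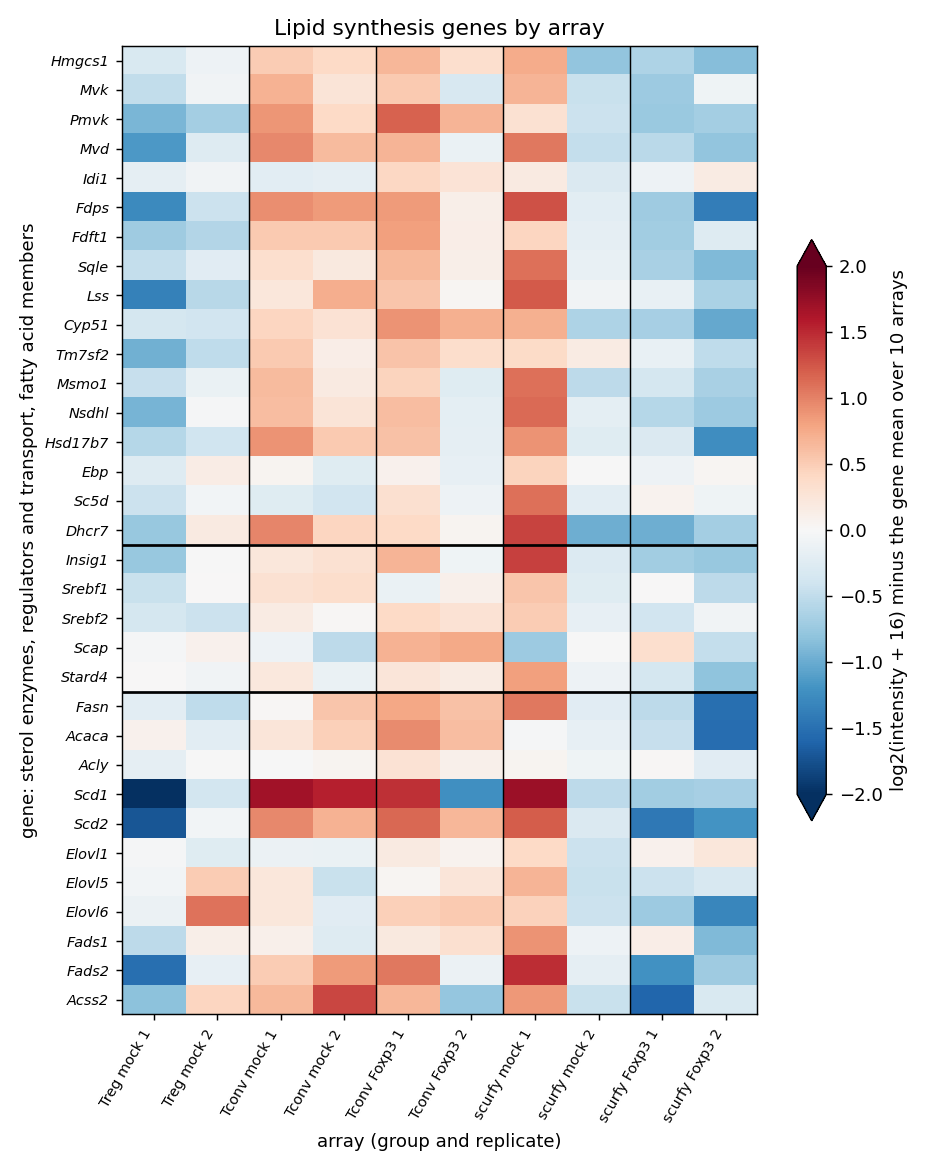
Each row is a gene and each column an array, and colour gives log2(intensity + 16) minus the gene's mean over the 10 arrays, in log2 units, with sterol enzymes, regulators and fatty acid genes separated by black lines. Tconv columns and scurfy mock array 1 are mostly red, and Treg mock, scurfy mock array 2 and scurfy Foxp3 columns mostly blue.

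Across the 5 groups, most sterol and fatty acid synthesis genes read lowest in scurfy Foxp3 or Treg mock. Scurfy Foxp3 had the lowest group mean for 21 of 33 members, against 15.3% of all genes tested, and Treg mock for 8, against 16.8%. Among fatty acid genes scurfy Foxp3 was lowest for 9 of 11, and among sterol enzymes for 9 of 17. The highest mean lay in Tconv mock for 11 members, against 7.28% of all genes. It lay in Tconv Foxp3 for 12 and in scurfy mock for 8, near the shares of all genes, 34.0% and 21.6%. The median deviation of the 17 sterol enzymes from their own means was -0.58 and -0.23 on the Treg mock arrays and -0.56 and -0.68 on scurfy Foxp3. It was 0.52 and 0.30 on Tconv mock and 0.58 and 0.05 on Tconv Foxp3. On scurfy mock it was 0.90 on array 1, above every other array, and -0.24 on array 2, beside Treg mock array 2. All genes stood at 0.02 on scurfy mock array 2 and 0.18 on Treg mock array 2. After quantile normalization the sterol median was -0.22 on scurfy mock array 2 and -0.48 and -0.44 on the Treg mock arrays. Less RNA per cell and fewer cells with that RNA cannot be told apart in these pools.

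**Figure D2:**
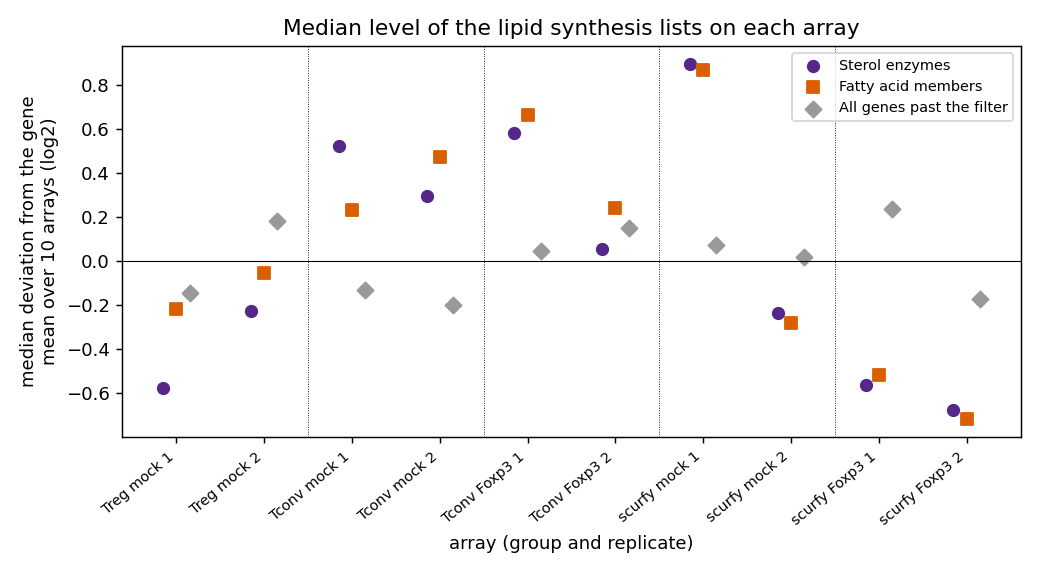
Median deviation from the gene mean, in log2 units, of the sterol enzymes (circles), the fatty acid genes (squares) and all genes past the filter (diamonds) on each of the 10 arrays. The sterol median runs from -0.68 on scurfy Foxp3 array 2 to 0.90 on scurfy mock array 1.

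The upper mevalonate pathway showed the lower Treg and scurfy Foxp3 readings in most steps. Hmgcs1, the synthase that makes HMG-CoA, read 2481 and 2853 on the Treg mock arrays, 4342 and 4052 on Tconv mock, 4846 and 3888 on Tconv Foxp3, 5138 and 1769.9 on scurfy mock, and 1999.8 and 1695 on scurfy Foxp3. Every Tconv array lay above every Treg and scurfy Foxp3 array, and the scurfy mock pair spanned both. Pmvk, which adds the second phosphate to mevalonate, read 553 and 648 on the Treg mock arrays, 1961 and 1389 on Tconv mock, 2396 and 1704 on Tconv Foxp3, 1303 and 779 on scurfy mock, and 625 and 654 on scurfy Foxp3. All 4 Tconv arrays exceeded all 6 arrays from GFP+ starts for Pmvk, a separation that 2.59% of tested genes showed in that direction. Mvd, which decarboxylates mevalonate diphosphate, read 98.8 and 198 on the Treg mock arrays, 481 and 379.7 on Tconv mock, 394 and 217 on Tconv Foxp3, 513 and 167 on scurfy mock, and 160.2 and 131 on scurfy Foxp3. Tconv Foxp3 array 2 lay near the upper Treg mock array for Mvd, and the Tconv mock arrays lay above both. Mvk, mevalonate kinase, ranged from 30.7 to 109 and lay below the array median on scurfy Foxp3 array 1, so its low values are close to background. Idi1, which isomerises isopentenyl diphosphate, read 2681 and 2894 on the Treg mock arrays, 2626 and 2687 on Tconv mock, 4077 and 3689 on Tconv Foxp3, 3434 and 2480.3 on scurfy mock, and 2849 and 3409 on scurfy Foxp3. Its Tconv Foxp3 arrays were highest and its Tconv mock arrays among the lowest, an order unlike that of Pmvk.

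At the branch to squalene the same groups lay low. Fdps, farnesyl diphosphate synthase, read 282 and 519 on the Treg mock arrays, 1355 and 1283 on Tconv mock, 1291 and 769 on Tconv Foxp3, 1723 and 611 on scurfy mock, and 426 and 259.7 on scurfy Foxp3. Its Treg mock and scurfy Foxp3 arrays lay below all others. Fdft1, squalene synthase, ranged from 918 on Treg mock array 1 to 2687 on Tconv Foxp3 array 1, and both Treg arrays lay below all other groups except scurfy Foxp3. Sqle, squalene epoxidase and a rate-setting step, read 438 and 526 on the Treg mock arrays, 781 and 708 on Tconv mock, 980.2 and 669 on Tconv Foxp3, 1349.9 and 558 on scurfy mock, and 388 and 327 on scurfy Foxp3. Scurfy Foxp3 held its lowest pair, Treg mock the next, and scurfy mock array 1 its highest value.

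From lanosterol onward the pattern held for most enzymes and was absent in 2. Cyp51 read 1664 and 1617 on the Treg mock arrays, 2855 and 2603 on Tconv mock, 3951 and 3463 on Tconv Foxp3, 3478 and 1379.7 on scurfy mock, and 1328 and 1028 on scurfy Foxp3. Its Tconv Foxp3 pair lay above its Tconv mock pair, and the Treg and scurfy Foxp3 pairs lay below both. Lss, which closes the sterol rings, ranged from 480.3 on Treg mock array 1 to 2943 on scurfy mock array 1. Tm7sf2, a sterol reductase, read 30.6 and 47.9 on the Treg mock arrays, 114 and 83.6 on Tconv mock, 119 and 99.4 on Tconv Foxp3, 102 and 86.1 on scurfy mock, and 66.1 and 48.1 on scurfy Foxp3. The replicates of scurfy mock lay close together for Tm7sf2, unlike those of most members. Msmo1, Nsdhl and Hsd17b7, which remove the methyl groups of lanosterol, each had their lowest group mean in scurfy Foxp3. Dhcr7, the last reductase of the pathway, read 303 and 597 on the Treg mock arrays, 1049 and 714 on Tconv mock, 698 and 547 on Tconv Foxp3, 1366 and 261 on scurfy mock, and 261 and 323 on scurfy Foxp3, and its scurfy mock arrays differed most of all sterol enzymes. The group means of Ebp, a sterol isomerase, spanned 0.32 log2 units and those of Sc5d, a sterol desaturase, 0.76, against 1.73 for Pmvk and 1.94 for Fdps.

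**Figure D3:**
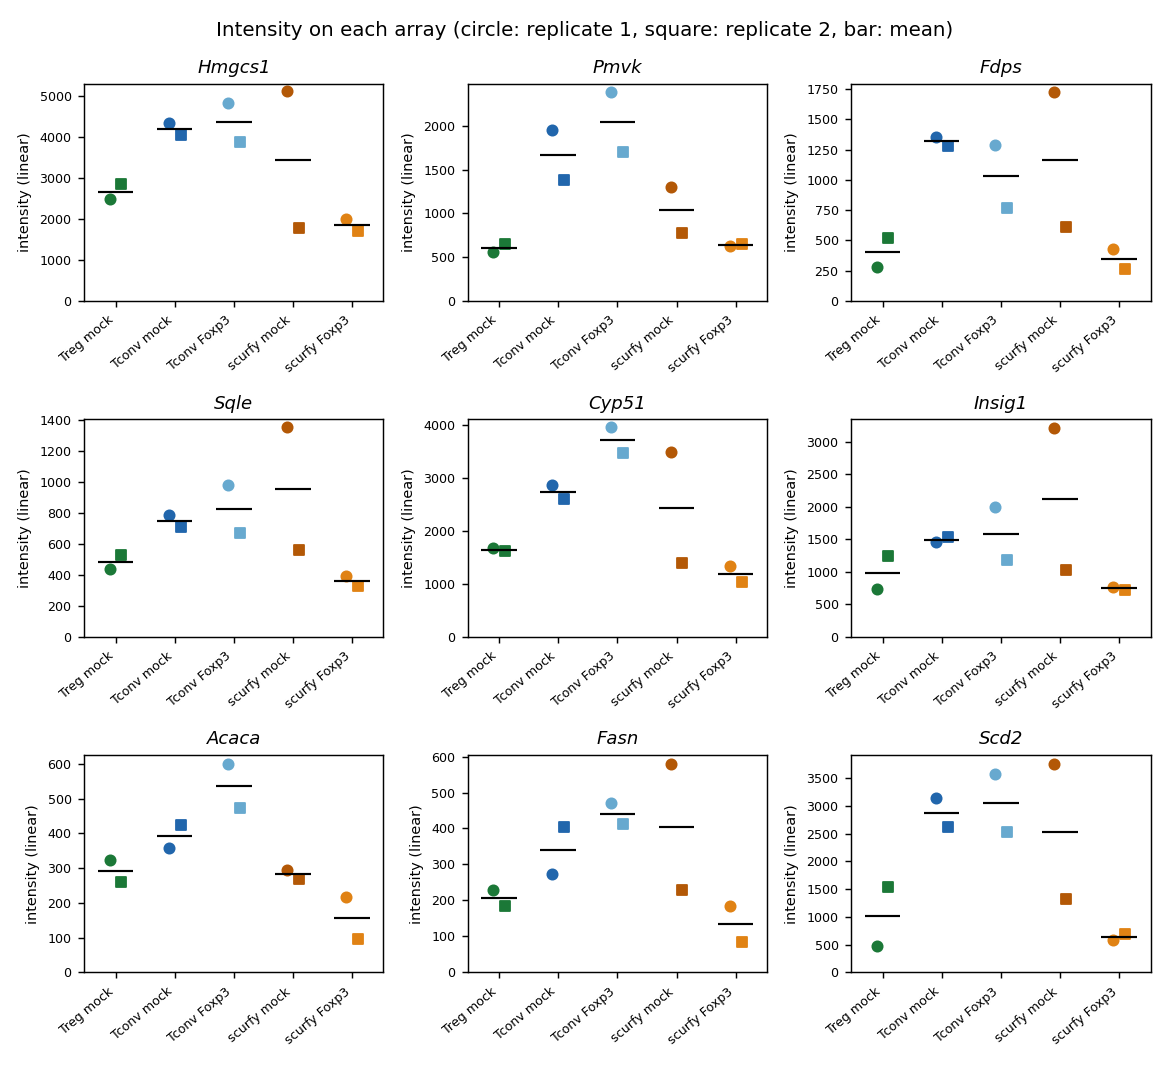
Linear intensity of 9 members on each array, with circles for replicate 1, squares for replicate 2 and bars for the mean of 2 arrays; axes start at 0. The Tconv points lie above the Treg mock and scurfy Foxp3 points in each panel except Insig1, where a Treg mock point at 1236 passes a Tconv Foxp3 point at 1173.

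The group means of Insig1 spanned 1.27 log2 units, of Scap 1.09, of Stard4 0.94, of Srebf2 0.73 and of Srebf1 0.59. Insig1, which retains SCAP in the endoplasmic reticulum and is itself a target of SREBP, read 728 and 1236 on the Treg mock arrays, 1454 and 1534 on Tconv mock, 1999 and 1173 on Tconv Foxp3, 3218 and 1019.6 on scurfy mock, and 762 and 723 on scurfy Foxp3. Its scurfy Foxp3 arrays lay below all mock arrays except Treg mock array 1, and scurfy mock array 1 was far above the rest. Srebf1, which encodes SREBP-1, read 126 and 178 on the Treg mock arrays, 222 and 230.3 on Tconv mock, 159 and 192 on Tconv Foxp3, 269 and 148 on scurfy mock, and 178 and 118 on scurfy Foxp3, and only scurfy mock array 1 lay above the Tconv mock pair. Srebf2, which encodes SREBP-2, the main sterol regulator, read 727 and 686 on the Treg mock arrays, 1043 and 943 on Tconv mock, 1232 and 1135 on Tconv Foxp3, 1321 and 830.1 on scurfy mock, and 707 and 885 on scurfy Foxp3. Its Treg mock arrays were below all others except scurfy Foxp3 array 1. Scap read 146 and 159 on the Treg mock arrays, 139 and 98.4 on Tconv mock, 251 and 262 on Tconv Foxp3, 84.1 and 149 on scurfy mock, and 193 and 103 on scurfy Foxp3. Tconv Foxp3 lay above every other array for Scap, and scurfy mock array 1 below them, which makes Scap the 1 member of 33 that was lower on scurfy mock array 1 than on array 2. Stard4, a cytosolic sterol carrier, ranged from 543 on scurfy Foxp3 array 2 to 1704 on scurfy mock array 1.

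Among fatty acid genes, the committed enzymes Acaca and Fasn were low in scurfy Foxp3. Acly, which makes acetyl-CoA from citrate, read 2279 and 2573 on the Treg mock arrays, 2572 and 2694 on Tconv mock, 3176 and 2796 on Tconv Foxp3, 2701 and 2432 on scurfy mock, and 2629 and 2224 on scurfy Foxp3. The means of its 5 groups spanned 0.30 log2 units for this probe set. Acaca, the acetyl-CoA carboxylase that commits carbon to fatty acids, read 323 and 260.0 on the Treg mock arrays, 358 and 425 on Tconv mock, 599.6 and 472 on Tconv Foxp3, 295 and 269 on scurfy mock, and 216 and 94.9 on scurfy Foxp3. Both Tconv groups exceeded every GFP+ start for Acaca, and scurfy Foxp3 held its lowest values. Fasn, fatty acid synthase, read 230.0 and 184 on the Treg mock arrays, 274 and 405 on Tconv mock, 471 and 411 on Tconv Foxp3, 579 and 229 on scurfy mock, and 184 and 84.5 on scurfy Foxp3. Its scurfy Foxp3 array 2 was the lowest of all, and scurfy mock array 1 the highest.

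Scd1, which puts the first double bond into saturated chains, read 25.5 and 224 on the Treg mock arrays, 982 and 894 on Tconv mock, 837 and 116 on Tconv Foxp3, 998 and 200.01 on scurfy mock, and 176 and 179.6 on scurfy Foxp3. Its replicates differed by several fold in Treg mock, Tconv Foxp3 and scurfy mock, so only the Tconv mock and scurfy Foxp3 pairs are close. Scd2, a second such desaturase, read 476 and 1544 on the Treg mock arrays, 3133 and 2609 on Tconv mock, 3569 and 2535 on Tconv Foxp3, 3744 and 1315 on scurfy mock, and 582 and 690.0 on scurfy Foxp3. All Tconv arrays exceeded all Treg mock and scurfy Foxp3 arrays for Scd2. Fads2, a desaturase of polyunsaturated chains, read 74.4 and 214 on the Treg mock arrays, 349 and 447 on Tconv mock, 518 and 221 on Tconv Foxp3, 701 and 211 on scurfy mock, and 95.4 and 140.3 on scurfy Foxp3. Elovl6, which lengthens palmitate, read 132 and 325 on the Treg mock arrays, 173 and 122 on Tconv mock, 209 and 216 on Tconv Foxp3, 206 and 103 on scurfy mock, and 81.6 and 49.5 on scurfy Foxp3. The 2 scurfy Foxp3 arrays were lowest for Elovl6, and Treg mock array 2 was highest, so that Treg mock did not sit low for it. Elovl1, Elovl5 and Fads1 had group means within 0.77 log2 units of each other, and Acss2, which makes acetyl-CoA from acetate, read 16.1 to 226, close to background at the low end.

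Cells that started as Tregs were compared with those that started as Tconv, both with empty vector. Sterol enzymes read lower in Treg mock: 14 of 17 differences were negative, all 14 with groups that did not overlap, with a median of -0.91 (log2), against 0.19 for all genes tested. For the fatty acid genes the median was -0.41, with 9 of 11 negative. Of all 33 members 27 were lower, against 35.2% of all genes. limma called 0 of 33 members at an adjusted p under 0.05, where 1.09% of all genes were called, and 10 members had an unadjusted p under 0.05, all lower, against 3.53% of all genes. The groups did not overlap in 23 members, Treg mock lower, against 16.3% of all genes, and in 1 member (Scap) with Treg mock higher, against 35.2%. The largest sterol differences were -1.74 (SE 0.52, adjusted p = 0.151) for Fdps, -1.50 (SE 0.52, adjusted p = 0.209) for Mvd and -1.44 (SE 0.33, adjusted p = 0.0879) for Pmvk. Scd1 differed by -3.26 (SE 1.04, adjusted p = 0.177) and Scd2 by -1.72 (SE 0.59, adjusted p = 0.207). On Treg mock array 1 Scd1 read 25.5, beside an array median of 25.0, so the size of its difference depends on the pseudocount. Differences were -0.65 (SE 0.44, adjusted p = 0.521) for Hmgcs1, -0.61 (SE 0.40, adjusted p = 0.511) for Sqle, -0.65 (SE 0.47, adjusted p = 0.55) for Fasn and -0.41 (SE 0.36, adjusted p = 0.633) for Acaca, while Acly stood at -0.12 (SE 0.25, adjusted p = 0.854). Other probe sets above the median on all 10 arrays gave -1.32, -1.12 and -0.97 for Hmgcs1, -0.71 for Acaca, and -0.66 and -0.17 for Acly. Among regulators, Insig1 stood at -0.64 (SE 0.51, adjusted p = 0.597), Srebf1 at -0.54 (SE 0.34, adjusted p = 0.49), Srebf2 at -0.48 (SE 0.29, adjusted p = 0.475) and Scap at 0.34 (SE 0.36, adjusted p = 0.69). Quantile normalization moved the median of all genes from 0.19 to -0.05 and that of the sterol enzymes to -1.16. Without Treg mock array 1 the sterol median was -0.55.

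A second comparison of GFP+ with GFP- starts, scurfy Foxp3 against Tconv Foxp3, has arrays labelled Foxp3 on both sides. Its GFP+ cells came from DEREG/Scurfy and its GFP- cells from DEREG mice, so genotype and starting cell cannot be told apart in it. It shares no array with the comparison above. Acaca fell by 1.77 (log2, SE 0.36), a 3.41-fold lower intensity, and Pmvk fell by 1.64 (SE 0.33), 3.11-fold lower, each with an adjusted p of 0.0418. limma called these 2 of 33 members, both lower, against 0.610% of all genes called lower and 2.24% called in either direction. In 13 members the unadjusted p was under 0.05, all lower, against 8.45% of all genes, and 26 had groups that did not overlap with scurfy Foxp3 lower, against 25.5%. The sterol median was -0.94 with 16 of 17 negative, and the fatty acid median -0.89 with 10 of 11 negative, against -0.07 for all genes. In total 31 of 33 members were lower, against 55.2% of all genes. Not called were Cyp51 at -1.65 (SE 0.40, adjusted p = 0.0771), Fdps at -1.54 (SE 0.52, adjusted p = 0.178), Scd2 at -2.22 (SE 0.59, adjusted p = 0.102) and Fasn at -1.69 (SE 0.47, adjusted p = 0.114). Hmgcs1 stood at -1.23 (SE 0.44, adjusted p = 0.201), Sqle at -1.15 (SE 0.40, adjusted p = 0.193), Scd1 at -0.79 (SE 1.04, adjusted p = 0.744) and Acly at -0.30 (SE 0.25, adjusted p = 0.575). Of the regulators, Insig1 stood at -1.03 (SE 0.51, adjusted p = 0.348), Scap at -0.79 (SE 0.36, adjusted p = 0.304), Srebf2 at -0.57 (SE 0.29, adjusted p = 0.355) and Srebf1 at -0.24 (SE 0.34, adjusted p = 0.763). When all probe sets were tested by limma, 2 of 71 member probe sets were called. Among them was another probe set of Scd2, at -2.81 (SE 0.58, adjusted p = 0.0492). The chosen probe sets of Acaca and Pmvk therefore did not both pass in that fit. The same groups differed in B cell and myeloid marker sums as given above, and the part of those cells was not tested.

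Both calls lay close to the threshold. Without scurfy Foxp3 array 2 the adjusted p of Acaca was 0.146 (difference -1.24), without a Tconv Foxp3 array it was 0.237 (array 1) or 0.225 (array 2), without a Treg mock array 0.0563 and without a Tconv mock array 0.0688. Pmvk lost its call without scurfy Foxp3 array 1 (0.0803) or 2 (0.154), Tconv Foxp3 array 1 (0.246) or 2 (0.187), either Treg mock array (0.0565) or either Tconv mock array (0.0631). Its difference lay between -1.88 and -1.39 over the 19 alternatives. The Treg mock and Tconv mock arrays enter this comparison through the pooled spread alone. Leaving any of them out kept the differences at -1.77 for Acaca and -1.64 for Pmvk. Leaving out either scurfy mock array, which enters here through the pooled spread alone, raised the members called to 4, with Cyp51 and Hmgcs1 added. Both calls were also lost with a pseudocount of 1 (adjusted p 0.0824 for Acaca and 0.0792 for Pmvk) and without the low-value filter (0.0775 and 0.0714). Blocking on replicate number in the limma fit ended both as well (0.0527 and 0.0558). Pmvk lost its call under quantile normalization (0.0587) and Acaca with the mean of its probe sets (0.0596). Without Tconv Foxp3 array 1 the sterol median was -0.59, and without array 2 the fatty acid median was -1.61.

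**Figure D4:**
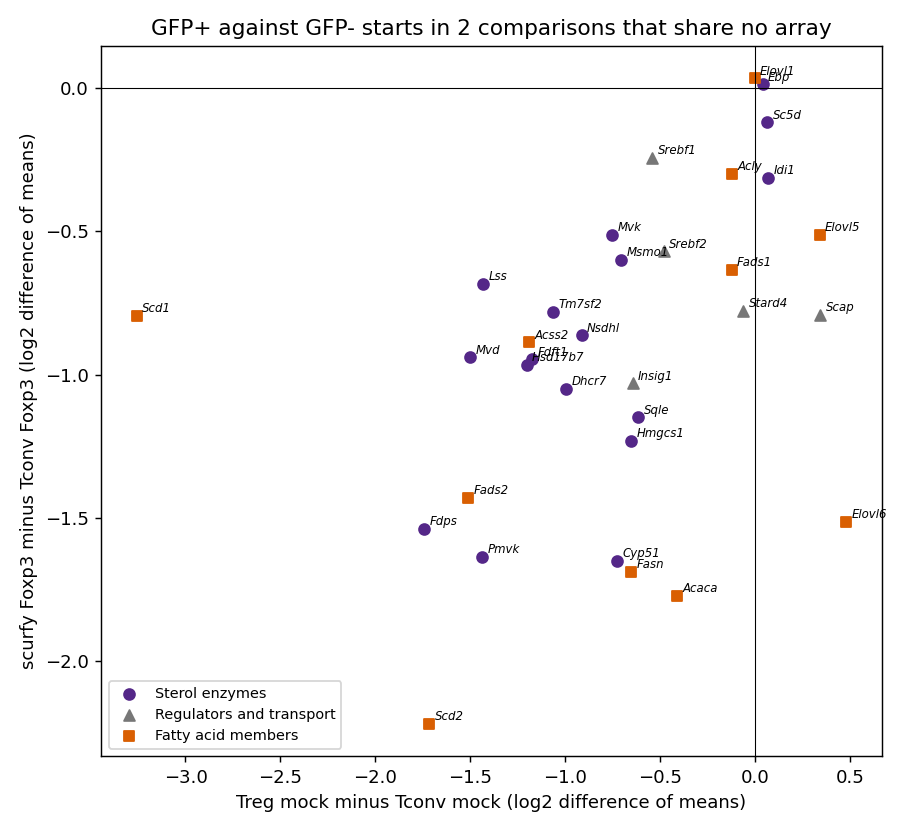
Log2 difference of group means for 33 members in Treg mock minus Tconv mock (x axis) and scurfy Foxp3 minus Tconv Foxp3 (y axis), 2 comparisons that share no array, with sterol enzymes as circles, regulators as triangles and fatty acid genes as squares. Of the 33, 26 lie below 0 on both axes, and Elovl6, Elovl5, Scap, Idi1 and Sc5d lie below 0 on the y axis alone.

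Set side by side, 26 of 33 members were lower in the GFP+ start in both of these comparisons, against 22.3% of all genes tested. The groups did not overlap, with the GFP+ start lower, in both for 19 of 33 members (57.6%), against 7.02% of all genes. Sterol enzymes made up 13 of those 19 and fatty acid genes 4, namely Fasn, Acaca, Scd2 and Fads2. Ebp was the 1 member with a positive value in both, 0.04 and 0.01. The values lay farthest apart for Scd1, -3.26 in Treg against Tconv mock and -0.79 in scurfy Foxp3 against Tconv Foxp3, and for Elovl6, 0.48 and -1.51. Acaca stood at -0.41 and -1.77, Cyp51 at -0.73 and -1.65, Pmvk at -1.44 and -1.64, and Fdps at -1.74 and -1.54. Whether each gene's values differ between the comparisons was not tested. In scurfy Foxp3 against Tconv Foxp3 the starts also differ in genotype, as given above.

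All 3 groups from GFP+ starts were then set against both groups from GFP- starts, which uses all 10 arrays and so shares arrays with each comparison above. The scurfy mock and scurfy Foxp3 groups came from DEREG/Scurfy mice, and both GFP- groups from DEREG mice. Genotype and starting cell are therefore partly confounded here. Pmvk fell by 1.31 (log2, SE 0.22, adjusted p = 0.0138), 2.48-fold lower in GFP+ starts, and the 6 arrays did not overlap the other 4, against 2.59% of all genes. It was the 1 member that limma called, against 1.18% of all genes called lower and 4.65% in either direction. Acaca, the other member whose arrays did not overlap, stood at -0.95 (SE 0.23, adjusted p = 0.0549). Unadjusted p was under 0.05 in 12 members, all lower, against 7.69% of all genes. The sterol median was -0.65 and the fatty acid median -0.78, against 0.08 for all genes, and 30 of 33 members were lower, against 42.3% of all genes. The largest differences of all members were those of Scd2 and Scd1, not called, with Scd2 at -1.44 (SE 0.38, adjusted p = 0.0675) and Scd1 at -1.44 (SE 0.67, adjusted p = 0.25). Fdps stood at -1.14 (SE 0.33, adjusted p = 0.0904) and Cyp51 at -0.97 (SE 0.26, adjusted p = 0.069). Hmgcs1 stood at -0.79 (SE 0.28, adjusted p = 0.148), Fasn at -0.80 (SE 0.30, adjusted p = 0.168), Sqle at -0.53 (SE 0.26, adjusted p = 0.268) and Acly at -0.18 (SE 0.16, adjusted p = 0.542). All 5 genes of regulation and transport were lower and not called, with Insig1 at -0.47, Srebf2 at -0.37, Scap at -0.34, Srebf1 at -0.26 and Stard4 at -0.20. The call on Pmvk was lost without Tconv Foxp3 array 1 (adjusted p = 0.0785) or array 2 (0.0518) and without Tconv mock array 1 (0.0631), and its adjusted p ranged from 0.00299 to 0.0785 over the alternatives. Leaving out scurfy mock array 1 raised the members called to 6. They came to 2 without scurfy mock array 2, Treg mock array 2 or scurfy Foxp3 array 1. The sterol median was -0.43 without scurfy mock array 2, and the fatty acid median -0.43 without Tconv Foxp3 array 1. Tyrobp and Fcer1g were also called higher in GFP+ starts, with scurfy Foxp3 far above the rest. Tyrobp read 284 and 383 on scurfy Foxp3, 13.3 and 39.5 on scurfy mock, and 15.8 and 50.9 on Treg mock. On Tconv mock Tyrobp read 13.1 and 5.87, and on Tconv Foxp3 8.63 and 22.2. Fcer1g read 127 and 118 on scurfy Foxp3, 10.7 and 29.0 on scurfy mock, and 11.9 and 29.2 on Treg mock. On Tconv mock Fcer1g read 1.37 and 5.38, and on Tconv Foxp3 11.9 and 17.3. Both markers lay below the array median on every Tconv array. They thus passed the filter through GFP+ starts, and the size of their differences depends on the pseudocount. The part of these markers was not tested. In the test of all probe sets, 2 further probe sets of Scd2 passed, at -1.82 (adjusted p = 0.0321) and -2.04 (adjusted p = 0.0335).

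Scurfy cells given empty vector were next compared with Tconv mock and with Treg mock. Scurfy mock and Tconv mock differ in both genotype and starting cell, which cannot be told apart in their comparison. Against Tconv mock, the 33 members split in direction, with 14 positive, against 68.0% of all genes, and 19 negative. The sterol median was -0.31 and the fatty acid median -0.03, against 0.22 for all genes. limma called 0 of 33, against 0.574% of all genes, and 0 had an unadjusted p under 0.05, against 13.8%. Pmvk stood at -0.70 (SE 0.33, adjusted p = 0.387), Sc5d at 0.76 (SE 0.41, adjusted p = 0.438), Mvd at -0.51 (SE 0.52, adjusted p = 0.687), Scd1 at -1.03 (SE 1.04, adjusted p = 0.684) and Acss2 at -0.78 (SE 0.68, adjusted p = 0.638). Hmgcs1 stood at -0.47, Sqle at 0.22, Fasn at 0.13, Acaca at -0.45 and Acly at -0.04. Insig1 stood at 0.28, Srebf1 at -0.17, Srebf2 at 0.08 and Scap at -0.05. Those means join unlike arrays. With scurfy mock array 1 alone the sterol median was 0.37 and the fatty acid median 0.46, and with array 2 alone they were -0.92 and -0.51. Without Tconv mock array 1 they were -0.16 and -0.14, and without Tconv mock array 2 the fatty acid median was -0.11. Array 2 was below the Tconv mock mean for 30 of 33 members and array 1 above it for 28.

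Against Treg mock, scurfy mock read higher in 29 of 33 members, against 54.1% of all genes, with medians of 0.74 for sterol enzymes (17 of 17 positive) and 0.41 for fatty acid genes, against 0.04 for all genes. limma called 0 of 33, against 0.256% of all genes, and 6 had an unadjusted p under 0.05, all higher, against 3.78%. The largest sterol differences were 1.53 (SE 0.47, adjusted p = 0.335) for Lss, 1.39 (SE 0.52, adjusted p = 0.505) for Fdps and 1.01 (SE 0.29, adjusted p = 0.285) for Tm7sf2. Scd1 stood at 2.23 (SE 1.04, adjusted p = 0.669) and Fads2 at 1.48 (SE 0.63, adjusted p = 0.6). With array 1 alone the sterol median was 1.35 and with array 2 alone 0.21, and for fatty acid genes 1.07 and 0.0066. Without Treg mock array 1 or 2 the fatty acid median was 0.22 or 0.63. Scd2 stood at 1.35, Hmgcs1 at 0.18, Sqle at 0.84, Fasn at 0.78, Acaca at -0.04 and Acly at 0.08. The regulators stood at 0.92 (Insig1), 0.38 (Srebf1), 0.56 (Srebf2) and -0.39 (Scap). For Tm7sf2, both arrays, at 102 and 86.1, lay well above both Treg arrays, at 30.6 and 47.9.

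Foxp3-labelled arrays were then compared with mock arrays within each starting cell. In scurfy cells, Foxp3-labelled arrays were lower than mock in 30 of 33 members, against 52.3% of all genes, with medians of -0.79 for sterol enzymes and -1.03 for fatty acid genes, against -0.02 for all genes. limma called 0 of 33, against 0.0353% of all genes, and 11 had an unadjusted p under 0.05, all lower, against 1.40% of all genes. The groups did not overlap in 18 members, Foxp3-labelled lower, against 8.84%. Fdps stood at -1.58 (SE 0.52, adjusted p = 0.999), Sqle at -1.25 (SE 0.40, adjusted p = 0.999), Scd2 at -1.78 (SE 0.59, adjusted p = 0.999), Fads2 at -1.61 (SE 0.63, adjusted p = 0.999) and Fasn at -1.43 (SE 0.47, adjusted p = 0.999). Acaca stood at -0.89 (SE 0.36, adjusted p = 0.999) and Insig1 at -1.27 (SE 0.51, adjusted p = 0.999). Every adjusted p was 0.999 here. Against scurfy mock array 1 the sterol median was -1.56 and against array 2 -0.24, and for fatty acid genes -1.48 and -0.49. Nsdhl stood at -1.12, Hmgcs1 at -0.71, Scd1 at -1.27 and Acly at -0.08, and Srebf1, Srebf2 and Scap at -0.42, -0.40 and 0.30. The mock arrays of Acaca differed by 0.13, with readings of 295 and 269 above 216 and 94.9. B cell and myeloid marker sums were also higher on the scurfy Foxp3 arrays, and their part was not tested.

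**Figure D5:**
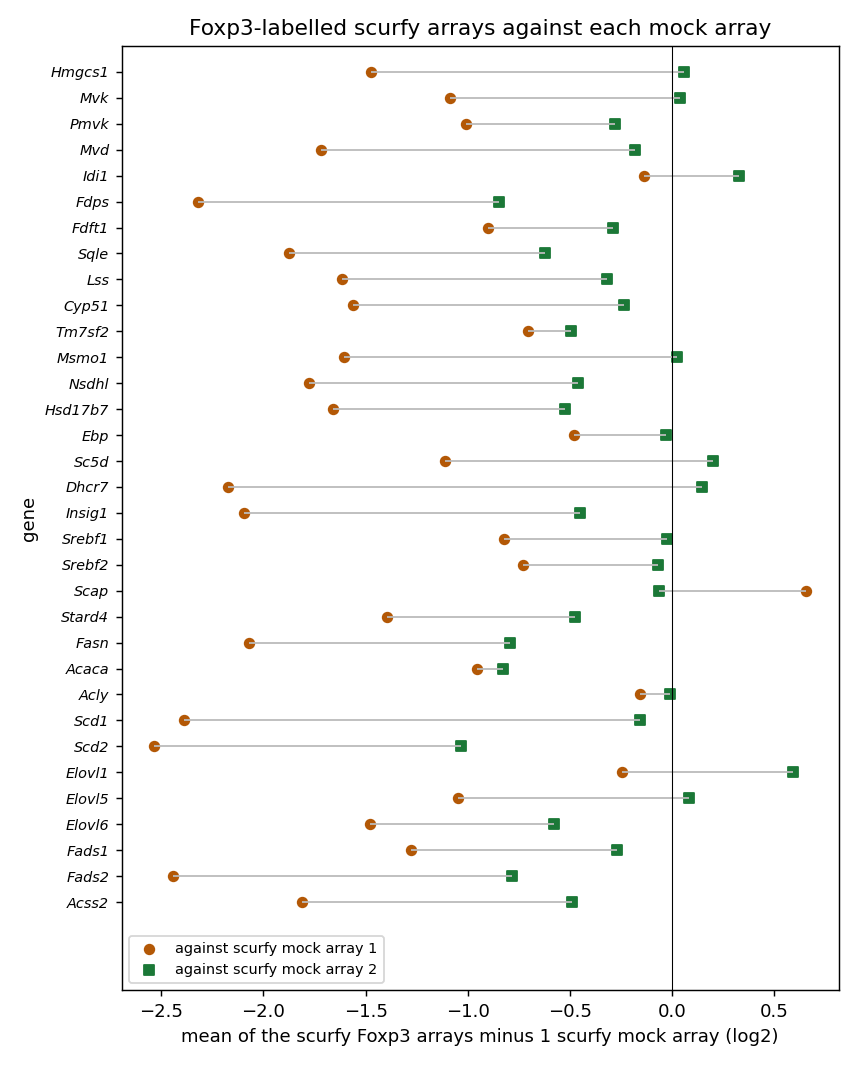
For each member, the mean of the 2 scurfy Foxp3 arrays minus scurfy mock array 1 (circles) and minus array 2 (squares), in log2 units. Against array 1, 32 of 33 members lie below 0, with a median of -1.47, and against array 2, 25 do, with a median of -0.27.

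In Tconv cells, Foxp3-labelled arrays were above mock for some members and below it for others. Sterol enzymes had a median of -0.04 and fatty acid genes 0.25, against 0.26 for all genes. Of 33 members 13 were negative, against 27.6% of all genes. After quantile normalization 23 of 33 were negative and the fatty acid median was -0.03, and the share of all genes is not given. That normalization moved all genes too. Their median deviations were 0.05 and 0.15 on Tconv Foxp3 and -0.13 and -0.20 on Tconv mock before it. After it they were 0.02 to 0.03 on these arrays. limma called 0 of 33, against 0.106% of all genes, and 1 had an unadjusted p under 0.05, namely Scap, higher, against 11.2% of all genes in that direction. Scap stood at 1.03 (SE 0.36, adjusted p = 0.288), Idi1 at 0.54 (SE 0.26, adjusted p = 0.397), Scd1 at -1.51 (SE 1.04, adjusted p = 0.533) and Acss2 at -1.04 (SE 0.68, adjusted p = 0.51). Acaca stood at 0.43 (SE 0.36, adjusted p = 0.606), Fasn at 0.39 (SE 0.47, adjusted p = 0.731), Hmgcs1 at 0.05 (SE 0.44, adjusted p = 0.97), Sqle at 0.12 (SE 0.40, adjusted p = 0.917) and Insig1 at 0.04 (SE 0.51, adjusted p = 0.98). Mvd stood at -0.52, Hsd17b7 at -0.51, Acly at 0.18, Srebf1 at -0.34 and Srebf2 at 0.25. The sterol median was -0.38 without Tconv Foxp3 array 1 and 0.18 without array 2, and the fatty acid median 0.16 without Tconv mock array 2. The 95% interval for Hmgcs1, -0.94 to 1.04, admits sizeable changes both ways.

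The difference between those Foxp3-label contrasts, scurfy minus Tconv, was negative in 32 of 33 members, against 69.7% of all genes. Genotype and starting cell cannot be told apart in this difference. The medians of the difference were -0.73 for sterol enzymes and -1.11 for fatty acid genes, against -0.28 for all genes. limma called 0 of 33 members and 0% of all genes, while 6 members had an unadjusted p under 0.05, all lower, against 5.54% of all genes. They were Fasn at -1.82 (SE 0.66, adjusted p = 0.61), Acaca at -1.32 (SE 0.51, adjusted p = 0.615), Elovl6 at -1.53 (SE 0.64, adjusted p = 0.615), Sqle at -1.37 (SE 0.57, adjusted p = 0.615), Cyp51 at -1.34 (SE 0.56, adjusted p = 0.615) and Stard4 at -1.10 (SE 0.49, adjusted p = 0.618). Scd2 stood at -1.86, Insig1 at -1.31, Fdps at -1.18, Hmgcs1 at -0.76, Acly at -0.26 and Scd1 at 0.23. Srebf1 stood at -0.08, Srebf2 at -0.65 and Scap at -0.74. Without scurfy mock array 1 the medians were -0.22 for sterol enzymes and -0.57 for fatty acid genes, and -0.26 for all genes. Without array 2 the sterol median was -1.30.

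The Foxp3-labelled groups were finally compared with Treg mock. Against it, 22 of 33 members were lower in scurfy Foxp3, against 48.6% of all genes, with medians of -0.13 for sterol enzymes and -0.43 for fatty acid genes, against 0.01 for all genes. limma called 0 of 33, against 0.177% of all genes, and 2 had an unadjusted p under 0.05, both lower, against 3.77%. These were Elovl6 at -1.49 (SE 0.45, adjusted p = 0.362) and Acaca at -0.93 (SE 0.36, adjusted p = 0.478). Lss stood at 0.56, Dhcr7 at -0.53, Hmgcs1 at -0.53, Sqle at -0.41, Fasn at -0.65, Scd1 at 0.96 and Acly at -0.00. Insig1, Srebf1, Srebf2 and Scap stood at -0.35, -0.05, 0.16 and -0.10. Pmvk stood at 0.09 (SE 0.33, adjusted p = 0.981), with a 95% interval of -0.66 to 0.85. Leaving out Treg mock array 2 turned the sterol median to 0.22 and the fatty acid median to 0.085, leaving out array 1 gave -0.36 and -0.78, and leaving out scurfy Foxp3 array 2 gave a sterol median of -0.04. The part of the B cell and myeloid markers was not tested here either. Tconv Foxp3 stood above Treg mock in 32 of 33 members, against 55.9% of all genes, with medians of 0.70 and 0.46, against 0.08 for all genes. limma called 0 of 33 there, against 0.671% of all genes, and 9 had an unadjusted p under 0.05, all higher, against 7.23%. Pmvk stood at 1.73 (SE 0.33, adjusted p = 0.0651), Tm7sf2 at 1.19 (SE 0.29, adjusted p = 0.129), Scd2 at 1.79 (SE 0.59, adjusted p = 0.234), Scd1 at 1.75 (SE 1.04, adjusted p = 0.494) and Fdps at 1.34 (SE 0.52, adjusted p = 0.301). Lss, Hmgcs1, Sqle, Acaca, Fasn and Acly stood at 1.24, 0.70, 0.74, 0.84, 1.04 and 0.30, and Insig1, Srebf1, Srebf2 and Scap at 0.68, 0.20, 0.73 and 0.69. Without Tconv Foxp3 array 1 the sterol median was 0.46, and without array 2 the medians were 1.07 and 0.87. Without Treg mock array 2 the fatty acid median was 0.77, and leaving out either scurfy mock array brought Pmvk past the threshold. The Treg mock arrays lay below both Tconv Foxp3 arrays in 21 of 33 members, against 31.3% of all genes.

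Lists of neighbouring pathways had medians between -0.17 and 0.52 where sterol enzymes stood at -0.65, beside 0.08 for all genes. In the comparison of GFP+ with GFP- starts, the 10 genes of sterol sensing and uptake had a median of 0.19, with 1 called higher and 1 lower. Lipa, the lysosomal acid lipase, rose by 1.06 (SE 0.23, adjusted p = 0.0349), and Scarb1, the lipoprotein receptor SR-B1, fell by 0.88 (SE 0.20, adjusted p = 0.044). The 6 genes of LXR signalling and sterol efflux past the filter had a median of 0.52 with 5 positive and 0 called. Its largest were the sterol exporter Abcg1 at 1.22 (SE 0.47, adjusted p = 0.173) and Mylip at 0.92 (SE 0.33, adjusted p = 0.151), and 3 had an unadjusted p under 0.05 by limma. Mylip exceeded the array median only on scurfy Foxp3 array 2, scurfy mock array 1 and Treg mock array 2, and read 1.15 and 0.827 on Tconv mock. It thus passed the filter through GFP+ starts, and the size of its difference depends on the pseudocount. Over all genes 4.65% were called here, and 14.0% were higher and 7.69% lower at that unadjusted p. The isoprenoid branch had a median of -0.17 over 9 genes and fatty acid oxidation -0.14 over 18, with 0 called in either by limma and 1 and 3 at an unadjusted p under 0.05. Rabggta, Rabggtb, Acaa2 and Cpt2 led these at -0.54, -0.35, -0.56 and -0.51. Of 20 genes of fatty acid uptake, activation and glycerolipids, 1 was called, the fatty acid receptor Cd36, higher in GFP+ starts (adjusted p = 0.0128). Cd36 read 32.8 and 21.7 on the Treg mock arrays, 3.51 and 4.57 on Tconv mock, 0.785 and 4.88 on Tconv Foxp3, 7.21 and 17.5 on scurfy mock, and 79.3 and 50.8 on scurfy Foxp3, so its scurfy Foxp3 pair lay above all other arrays. It was also called higher in scurfy Foxp3 against Tconv Foxp3 (adjusted p = 0.0137). It exceeded the array median only on that pair and Treg mock array 1, so it passed the filter through its high group, and the size of its difference depends on the pseudocount. Of 6 genes that supply citrate and NADPH, 1 was called, Me1, the malic enzyme, higher in GFP+ starts (adjusted p = 0.022). Me1 read 10.1 and 20.8 on the Treg mock arrays, 0.704 and 10.2 on Tconv mock, 2.32 and 1.84 on Tconv Foxp3, 94.1 and 169 on scurfy mock, and 152 and 32.2 on scurfy Foxp3. Only its scurfy arrays exceeded their array medians, so Me1 passed the filter through its high groups, and the size of its difference depends on the pseudocount. Treg against Tconv mock stood at 0.56 (SE 0.55, adjusted p = 0.666) for Me1. Acsl3 and Mid1ip1 stood at -0.65 and -0.37.

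Pparg, a lipid-sensing nuclear receptor of that uptake list, followed another order. It read 55.8 and 99.7 on the Treg mock arrays, 319.9 and 623 on Tconv mock, 16.6 and 13.0 on Tconv Foxp3, 275 and 286 on scurfy mock, and 175 and 177 on scurfy Foxp3. Tconv mock was its highest group and Tconv Foxp3 its lowest, and neither pair overlapped another. It fell by 2.35 (SE 0.36, adjusted p = 0.0197) in Treg against Tconv mock. limma also called it lower in Tconv Foxp3 against Tconv mock (adjusted p = 0.00984), which shares the Tconv mock arrays, and higher in scurfy Foxp3 against Tconv Foxp3 (adjusted p = 0.0101). Its Tconv Foxp3 readings lay below the medians of those arrays, 24.3 and 24.1, so the size of these last differences depends on the pseudocount and is not given.

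Most members had further probe sets, and these mostly gave the same direction. The 33 members had 78 probe sets, and 24 members had more than 1. Of 38 others past the filter, 31 had the sign of the chosen probe set in Treg against Tconv mock and 35 in scurfy Foxp3 against Tconv Foxp3. Acaca's other probe set stood at -1.14 (SE 0.37, adjusted p = 0.192) in the latter comparison. The chosen probe sets of Fdft1, Hsd17b7, Acly, Elovl1, Elovl5 and Fads2 carry the x suffix and those of Mvd and Lss the s suffix, which mark probes shared with other transcripts, so their values are less certain.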

How the data were processed

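Array intensities, 1 column per sample, were used as deposited. Per the submitters' processing notes they came from Affymetrix Expression Console, and the scaling method is unstated in the labels and files. Of 45101 probe sets, 34945 outside the 64 controls carried 1 gene symbol. Several symbols were given for 932 and none for 9211, some controls among them. Values were analysed as log2(intensity + 16) without further normalization. Each gene took its probe set of highest mean. A gene was tested if it exceeded the median of its array on 2 arrays or more. One limma model (3.58.1, R 4.3.3) over the 5 title groups gave 10 comparisons, with Benjamini-Hochberg adjustment over 11318 genes and calls at an adjusted p under 0.05. The fit had 5 residual degrees of freedom. It was tested on simulated data.

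The members and lists were chosen with earlier results of these data known. Text names called members, the 3 sterol and 2 fatty acid members of largest difference per comparison, and a fixed set of regulators and first or rate-setting enzymes. In neighbouring lists it names called genes and the largest 2. Listed genes without a probe set of their own symbol alone were not used here. Correlations of same-numbered deviations ran from -0.17 to 0.18 over 10 pairs of groups, 2 of them over 0.1. These values do not settle whether a replicate number marks a shared mouse or day, which no label states. The main fit has no replicate block. Promoters are from RefSeq on GRCm38.p6. Alternatives covered the scaling (quantiles, or equal 75th percentiles), the pseudocount (1 or 64), the low-value filter (dropped, or set at the 75th percentile), averaging a gene's probe sets, a trended robust fit, blocking on replicate number, and omitting arrays singly. With 2 arrays a group, their number limits the precision.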

Additional observations from a re-analysis of the deposited data

Results flagged for a closer look

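In 4 of 33 members the Foxp3-labelled arrays were all above mock in Tconv and all below mock in scurfy cells, against 367 of 11318 genes tested. Opposite shifts of either kind were seen in 12.1% of members and 4.93% of all genes. The limma test of the difference called 0 of the 4. For Fasn the difference of these shifts was -1.82 (log2, adjusted p = 0.61), from 0.39 in Tconv and -1.43 in scurfy cells, and it was -1.18 without scurfy mock array 1. For Elovl6 it was -1.53 (adjusted p = 0.615), from 0.50 and -1.03, and -1.08 without that array. For Cyp51 it was -1.34 (adjusted p = 0.615), from 0.44 and -0.90, and -0.68 without that array. For Acaca it was -1.32 (adjusted p = 0.615), from 0.43 and -0.89, and -1.26 without that array, so it moved least. Each of the 4 had an unadjusted p under 0.05 in that limma test. They were picked for these shifts on the same arrays, so that p adds no support.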

How the results depend on the processing

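Of 2621 recomputed values of named genes, 2553 kept their sign, 68 uncalled ones took the other, 31 gained a call and 26 lost one, and 0 called values reversed. In Treg against Tconv mock the members called went from 0 to 1 under quantile normalization, 2 with a common 75th percentile and 1 with the trended robust fit. In Tconv Foxp3 against Treg mock they went from 0 to 1 under quantile normalization, the common 75th percentile, pseudocount 64, the mean of probe sets and the trended robust fit. In scurfy Foxp3 against Tconv Foxp3 they went from 2 to 1 under quantile normalization and to 0 with pseudocount 1, no filter or the replicate block. In GFP+ against GFP- starts they went from 1 to 3 under quantile normalization, 7 with the common 75th percentile, 3 with pseudocount 64, 2 with the filter at the 75th percentile, 2 with the mean of probe sets and 4 with the trended robust fit. The cause was not tested. The replicate block left GFP+ against GFP- starts at 1 and moved the calls over all genes from 254 to 165 in scurfy Foxp3 against Tconv Foxp3 and from 526 to 388 in GFP+ against GFP- starts.

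Leaving out each array in turn gave 0 to 1 members called in Tconv Foxp3 against Treg mock, 0 to 4 in scurfy Foxp3 against Tconv Foxp3 and 0 to 6 in GFP+ against GFP- starts. Of the medians (log2), the sterol one ran from -1.24 to -0.55 in Treg against Tconv mock, -1.27 to -0.59 in scurfy Foxp3 against Tconv Foxp3, 0.46 to 1.07 in Tconv Foxp3 against Treg mock, -0.36 to 0.22 in scurfy Foxp3 against Treg mock and -0.38 to 0.18 in Tconv Foxp3 against Tconv mock. In GFP+ against GFP- starts they ran from -0.86 to -0.43 for sterol and -0.97 to -0.43 for fatty acid genes. Scurfy mock against Tconv mock gave -0.92 to 0.37 for sterol and -0.51 to 0.46 for fatty acid genes. Scurfy Foxp3 against scurfy mock gave -1.56 to -0.24 and -1.48 to -0.49. The difference of the Foxp3-label contrasts, scurfy minus Tconv, gave -1.30 to -0.22 and -1.39 to -0.57. Scurfy mock against Treg mock gave 0.21 to 1.35 and 0.0066 to 1.07. Fatty acid medians ran from -0.78 to 0.085 in scurfy Foxp3 against Treg mock, 0.36 to 0.87 in Tconv Foxp3 against Treg mock, and -1.61 to -0.69 in scurfy Foxp3 against Tconv Foxp3. Low signal limits Mvk and Acss2, which lay below the array median on scurfy Foxp3 array 1. It also limits Scd1 and Tm7sf2, at 25.5 and 30.6 on Treg mock array 1, where the array median was 25.0.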
